A study of Homo sapiens with 3 samples.

Results

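The genes described here encode the machinery that copies DNA, the Fanconi anemia pathway and mismatch repair, measured in HCT116 cells. They are the 91 of 15625 genes in the expression table whose deposited pathway names include DNA replication (36 genes), Fanconi anemia pathway (54 genes) or Mismatch repair (23 genes). A gene may carry more than one of these names. HCT116 is an established human colorectal cancer line, labelled genotype MT in every sample. The series has 3 RNA-seq libraries of it: 1 with a control shRNA (sh_control) and 2 with shRNA against the circular RNA circRAPGEF5 (sh_circRAPGEF5_1 and sh_circRAPGEF5_2, called knockdown libraries 1 and 2). Cells in all groups were transfected with a purchased shRNA system and collected after 36 or 48 h. Which of these times belongs to which library is not stated. The labels do not give separate cultures, so the p-values below rest on the spread of these libraries alone, and this may be technical. They also do not say whether the knockdown libraries carry different hairpins.

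Before a cell divides, the MCM helicase unwinds DNA at origins, primase and polymerase alpha lay down primers, and polymerases delta and epsilon extend them while tethered by the PCNA clamp. The Fanconi proteins act when a fork meets a crosslink between the strands: a core complex ubiquitinates FANCD2 and FANCI, which bring in nucleases, bypass polymerases and homologous recombination. Mismatch repair corrects copying errors left by the polymerases, and HCT116 is known as a mismatch repair deficient line. Many of these genes are known targets of E2F transcription factors, which turn on genes for DNA synthesis at the G1 to S transition.

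Promoter sequences of the set are shown first, because the letters of the E2F site were present in a larger share of them than of other promoters. RefSeq windows of 250 bases before to 50 after a gene start (300 bases, build GRCh38.p14) were matched by symbol for 79 of the 91 members, 107 windows in all. Windows of genes with several starts may overlap, and the same match can then count in more than 1 window. CENPS and CENPS-CORT have the same window, counted for each. The SLX1B window has the same letters as 1 of the SLX1A windows. The letters searched on both strands were TTTCCCGC, TTTCGCGC, TTTGCCGC and TTTGGCGC. Matches on opposite strands may overlap and were each counted. At least 1 match was found in 28.0% of the members' windows (30 of 107), in 5.07% of the 13286 windows of all genes tested for expression and in 3.31% of all 35116 windows. In 21 of those 30 windows the outermost match began no more than 100 bases upstream of the start. The 6 windows below were chosen among those with a match. They run 5′ to 3′ on the gene's strand and capitals mark the matched letters. They belong to 2 genes with large differences between groups (FANCD2, LIG1), a polymerase (POLA1), the helicase gene with most matches (MCM6), the clamp (PCNA) and a gene whose level was higher in both knockdown libraries (SSBP1). Their positions are chr3:10026187-10026486 (plus strand) for FANCD2, chr19:48170295-48170594 (minus) for LIG1, chrX:24693668-24693967 (plus) for POLA1, chr2:135876394-135876693 (minus) for MCM6, chr20:5126573-5126872 (minus) for PCNA and chr7:141738071-141738370 (plus) for SSBP1.
FANCD2: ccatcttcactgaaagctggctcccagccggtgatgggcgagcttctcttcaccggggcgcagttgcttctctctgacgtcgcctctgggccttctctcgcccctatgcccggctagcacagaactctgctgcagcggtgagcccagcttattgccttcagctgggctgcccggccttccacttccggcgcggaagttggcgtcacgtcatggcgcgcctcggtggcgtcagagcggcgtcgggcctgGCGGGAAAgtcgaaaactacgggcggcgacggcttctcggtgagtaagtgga
LIG1: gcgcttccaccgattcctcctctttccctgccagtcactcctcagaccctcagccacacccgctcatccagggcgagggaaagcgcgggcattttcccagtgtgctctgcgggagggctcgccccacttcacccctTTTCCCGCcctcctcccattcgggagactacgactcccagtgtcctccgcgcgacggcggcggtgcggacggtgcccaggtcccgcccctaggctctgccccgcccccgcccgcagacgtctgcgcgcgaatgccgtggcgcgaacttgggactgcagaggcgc
POLA1: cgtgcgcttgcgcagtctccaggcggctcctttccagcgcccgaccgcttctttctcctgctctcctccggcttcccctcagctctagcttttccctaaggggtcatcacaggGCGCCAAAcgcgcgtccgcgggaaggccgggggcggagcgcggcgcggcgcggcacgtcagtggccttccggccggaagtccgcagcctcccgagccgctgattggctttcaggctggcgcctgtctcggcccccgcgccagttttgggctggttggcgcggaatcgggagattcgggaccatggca
MCM6: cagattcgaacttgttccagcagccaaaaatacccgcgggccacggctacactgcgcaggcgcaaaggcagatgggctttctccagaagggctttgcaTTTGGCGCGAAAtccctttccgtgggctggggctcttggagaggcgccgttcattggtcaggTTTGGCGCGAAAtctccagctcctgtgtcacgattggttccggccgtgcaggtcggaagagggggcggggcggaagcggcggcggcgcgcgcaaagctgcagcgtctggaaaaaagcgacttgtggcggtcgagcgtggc
PCNA: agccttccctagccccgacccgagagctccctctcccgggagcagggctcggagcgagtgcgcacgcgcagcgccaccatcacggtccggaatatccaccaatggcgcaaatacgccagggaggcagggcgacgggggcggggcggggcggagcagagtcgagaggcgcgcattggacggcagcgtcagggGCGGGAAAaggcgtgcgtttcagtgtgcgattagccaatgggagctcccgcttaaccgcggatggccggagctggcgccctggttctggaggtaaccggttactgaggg
SSBP1: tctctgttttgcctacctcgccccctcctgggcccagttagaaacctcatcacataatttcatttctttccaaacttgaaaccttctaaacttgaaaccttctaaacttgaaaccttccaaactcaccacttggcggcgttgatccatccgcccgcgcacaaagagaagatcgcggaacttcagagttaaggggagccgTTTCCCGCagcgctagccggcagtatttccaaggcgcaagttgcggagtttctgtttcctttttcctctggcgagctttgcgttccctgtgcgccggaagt

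In these windows the match began 2 bases before the start in FANCD2, 114 in LIG1, 137 in POLA1, 59 in PCNA and 51 in SSBP1. PCNA and SSBP1 have other starts, and each has a window with no match. In a further SSBP1 window the same match began 88 bases before the start. MCM6 held 4 matches, which began 152, 148, 90 and 86 bases before the start. The CCAAT box (letters CCAAT) was present in 40.2% of the members' windows and 35.1% of those of all genes tested. The GC box (GGGCGG) was present in 71.0% and 68.1%, and the CHR letters of mitotic genes (TTTGAA and TTTAAA) in 10.3% and 16.2%. A match is only a run of letters and does not show that a factor binds there.

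**Figure D1:**
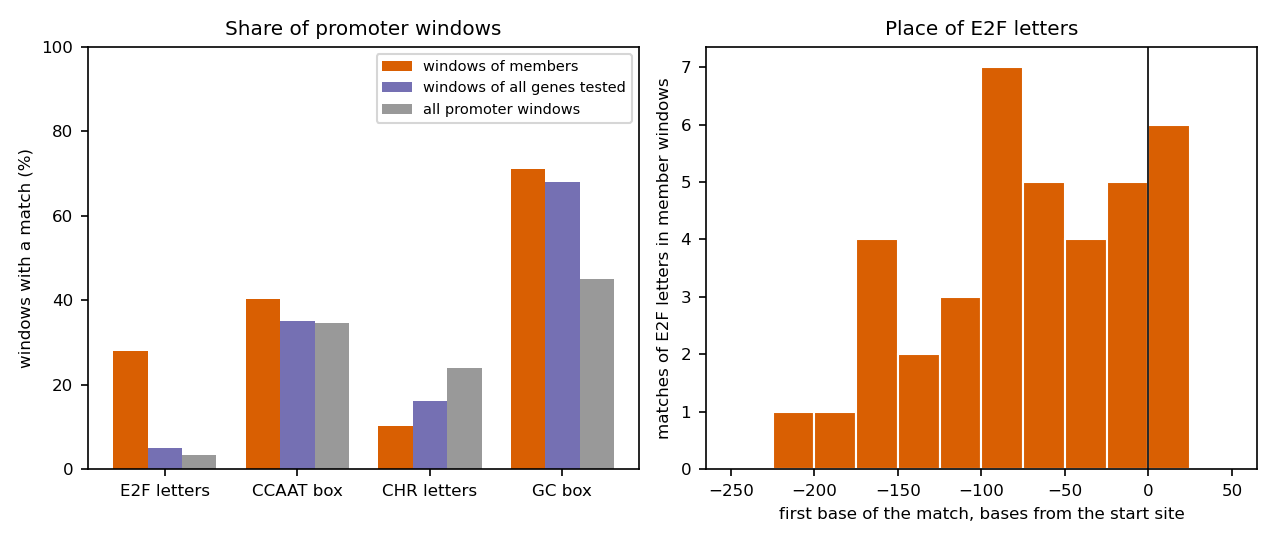
Left, percentage of 300-base promoter windows with at least 1 match, for 4 sets of letters, in windows of the members, of all genes tested and of all genes in the RefSeq table; right, number of matches of E2F letters in member windows by their distance in bases from the start site. The E2F letters were in 28.0% of member windows against 5.07% and 3.31%, while the CCAAT and GC box bars of members and tested genes lie close together.

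Expression is given in FPKM, a fragment count per gene length that is scaled to the library, so that levels can be compared between genes per length. Fold changes are differences of log2(FPKM + 1), the knockdown libraries minus the control. Genes were tested if their mean over the 3 libraries was at least 1 FPKM, which 88 of the 91 members reached. MSH3 lay just inside this filter, at 1.16 FPKM in sh_control against 0.817 and 1.10 with knockdown. POLN, a translesion polymerase, lay just outside it at 1.15 against 0.651 and 0.860. The other untested members were CENPS, at most 0.542 FPKM, and RPA4, at most 0.157. In the control the tested members ranged from 1.16 FPKM (MSH3) to 183 FPKM (PCNA), with a median of 10.7.

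Most members had lower levels in the knockdown libraries, but none passed the test. The control lay above both knockdown libraries in 51 of 88 tested members (58.0%), against 37.6% of all 11216 genes tested, and below both in 14 (15.9%), against 31.7%. Both differences share the same control library. The median log2 fold change of the members was -0.35, against -0.05 for all genes tested. It was -0.46 in knockdown library 1 and -0.20 in knockdown library 2. By pathway it was -0.39 for DNA replication (35 tested), -0.34 for the Fanconi pathway (51) and -0.15 for Mismatch repair (22). On the log2(FPKM + 1) scale, levels at least 1.5-fold lower in both knockdown libraries were found in 17 members (19.3%, against 7.4% of all genes), and at least 1.5-fold higher in 0 (against 5.52%). In library 1 taken alone 36 members were 1.5-fold lower (40.9%, against 17.6% of all genes) and 2 were 1.5-fold higher (against 11.8%). In library 2 taken alone 22 were lower (25%, against 17.4%) and 2 higher (against 13.4%).

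limma, a linear model with the spread of all genes pooled, called 0 of 88 members at an adjusted p under 0.05, against 0.0178% of all genes tested. The smallest adjusted p of a member was 0.547. At an unadjusted p under 0.05 there were 9 members with a lower level (10.2%, against 3.99% of all genes) and 0 with a higher one (against 3.08%). That number was 3 when low genes were kept, 4 after median-ratio rescaling and 4 with limma's prior set to 5 degrees of freedom. With 3 possible splits, the smallest p of an exact permutation test here is 0.33. In RNA of whole cultures, fewer cells in S phase and less RNA per cell cannot be told apart.

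**Figure D2:**
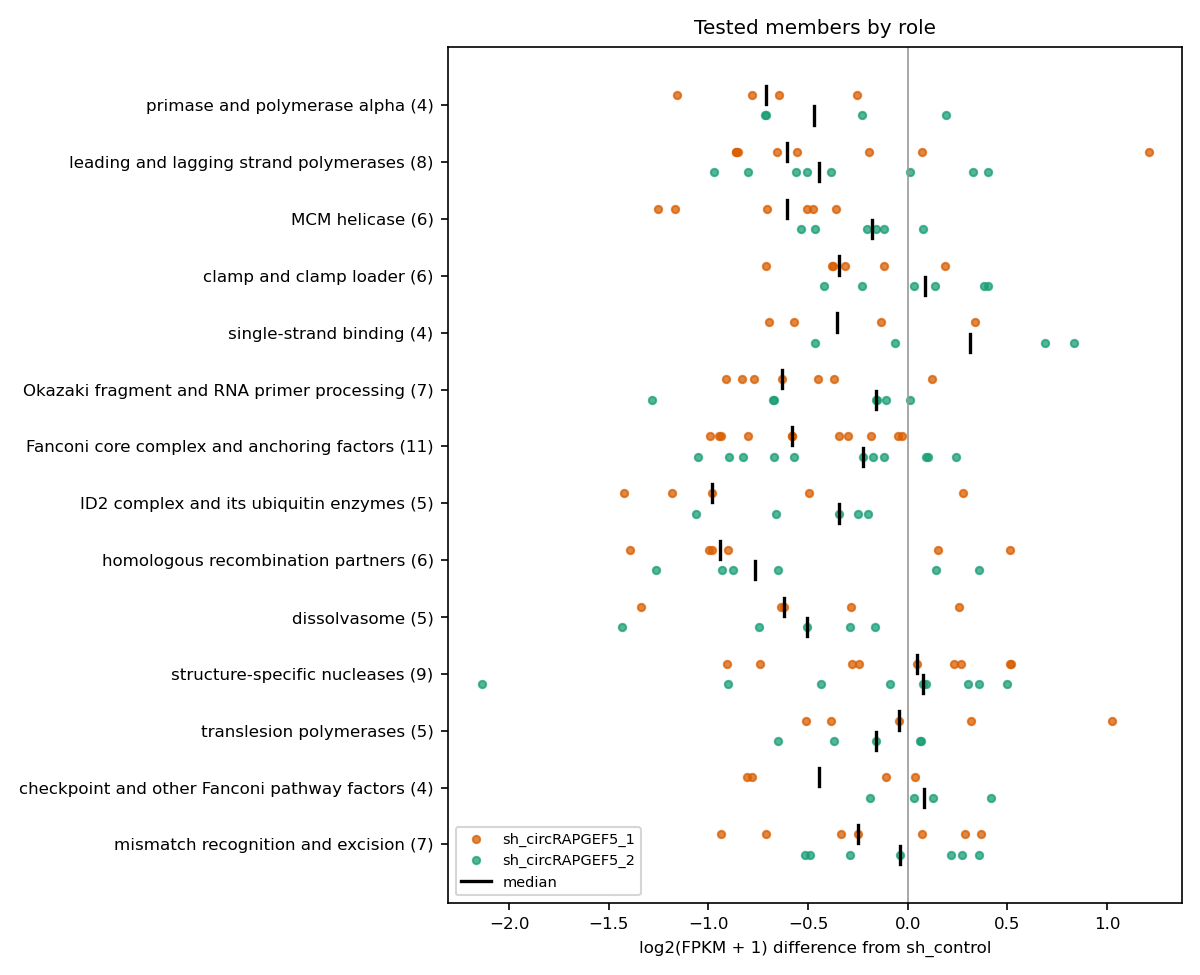
Difference of log2(FPKM + 1) from sh_control for each tested member (points) in knockdown library 1 and knockdown library 2, grouped by role, with the number of tested members in parentheses and a black tick at each median. The medians of the homologous recombination partners are at -0.94 and -0.76 and those of the ID2 group at -0.98 and -0.34, while the structure-specific nucleases are at 0.04 and 0.07.

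The primers of both strands come from primase and polymerase alpha. Of these 4 genes 3 had lower levels in both knockdown libraries, against 37.6% of all genes tested. PRIM1, the catalytic primase subunit, was at 34.6 FPKM in sh_control against 14.97 in knockdown library 1 and 20.7 in library 2 (log2 fold change -0.93 ± 0.41 SE, limma adjusted p 0.692). POLA1, the catalytic subunit of polymerase alpha, was at 8.08 against 4.29 and 4.54 (-0.75 ± 0.43). Its partner POLA2 was at 6.52 against 3.81 and 5.42. The large primase subunit PRIM2 did not go with them: at 6.27 FPKM in the control it lay between the knockdown libraries (5.10 and 7.29).

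The 6 genes of the MCM helicase, the ring that unwinds the fork, were abundant, at 42.0 to 167 FPKM in the control. Their levels had different orders in the 3 libraries, with MCM7 highest in each. MCM4 and MCM7 were similarly lower in both knockdown libraries: MCM4 was at 82.8 FPKM against 58.0 and 56.8, and MCM7 at 167 against 130 and 121. MCM3 and MCM6 differed mainly in library 1. MCM3 was at 90.4 FPKM in the control, 39.7 in library 1 and 83.2 in library 2. MCM6 was at 42.0, 17.0 and 44.4, so that library 2 lay on the other side of the control. MCM2 (77.3 FPKM against 55.4 and 69.2) and MCM5 (54.9 against 33.3 and 47.5) lay between these patterns. The group's median log2 fold change was -0.61 in library 1 and -0.18 in library 2.

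Polymerases delta and epsilon extend the primers on the lagging and leading strand. POLE, the catalytic subunit of polymerase epsilon, was at 37.7 FPKM against 20.4 and 26.3 (log2 fold change -0.68 ± 0.40). POLD1, the catalytic subunit of polymerase delta, was at 31.6 against 17.0 and 21.1 (-0.71 ± 0.40). POLD3, an accessory delta subunit, was at 8.22 against 4.07 and 4.29 (-0.83 ± 0.43, limma adjusted p 0.7504). These 3 genes had their highest level in the control. POLD4, the smallest delta subunit, had the opposite order, at 7.32 FPKM in the control, 18.2 in library 1 and 9.44 in library 2. Its log2 fold change of 0.77 ± 0.47 (limma adjusted p 0.805) was the highest of the set. The accessory subunits of epsilon were mixed. POLE3, a histone-fold subunit, was at 60.8 FPKM against 53.1 and 30.5, POLE2 at 10.7 against 6.43 and 10.8, and POLE4 at 5.15 against 5.46 and 7.13. Subunits of the same holoenzyme thus lay on both sides of the control, and none passed the test.

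The clamp and its loader had a median log2 fold change of -0.13. The control lay between the knockdown libraries in 5 of 6 genes, against 3439 of all 11216 genes tested. PCNA, the sliding clamp and the most abundant member, was at 183 FPKM in the control, 208 in library 1 and 156 in library 2 (log2 fold change -0.02 ± 0.41, and 0.068 after median-ratio rescaling). Of the 5 RFC genes, which load the clamp, 4 had the control between the knockdown libraries. RFC1, the large subunit, was at 22.7 FPKM against 13.5 and 29.9. RFC3 was at 3.82 against 2.70 and 5.38, a log2 fold change of 0.01 that was -0.0027 with a pseudocount of 0.1. RFC4 (38.1 against 30.4 and 39.0) and RFC5 (27.4 against 20.9 and 30.3) had the same order. In these 4 genes library 1 was the lowest library and library 2 the highest. RFC2 alone in this group was highest in the control, at 34.7 FPKM against 31.9 and 25.7.

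The subunits of RPA, which coats single-stranded DNA, did not all have the same order of the libraries. RPA1, the large subunit, was at 82.0 FPKM against 50.2 and 59.1. RPA2, the middle subunit, was at 32.5 against 29.6 and 53.0, and RPA3 at 12.7 against 8.24 and 12.2. SSBP1, which binds single-stranded DNA in mitochondria, was the gene of this group with both knockdown libraries above the control, at 58.3 FPKM against 73.9 and 105 (log2 fold change 0.59 ± 0.41).

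Enzymes that remove RNA primers and join Okazaki fragments were lower in both knockdown libraries in 5 of 7 genes (against 37.6% of all genes). LIG1, the ligase that seals these fragments, was at 38.4 FPKM against 21.2 and 15.2, and its log2 fold change of -1.06 ± 0.41 (limma adjusted p 0.628) was the lowest among DNA replication genes. DNA2, a nuclease and helicase for long flaps, was at 9.07 against 4.35 and 5.31 (-0.79 ± 0.43). The flap endonuclease FEN1 differed less, at 64.5 FPKM against 41.3 and 57.8. Of the RNase H genes, RNASEH2B was at 6.88 against 4.78 and 3.95 and RNASEH2C at 6.89 against 5.10 and 6.09. The control lay between the knockdown libraries for RNASEH1 and RNASEH2A.

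**Figure D3:**
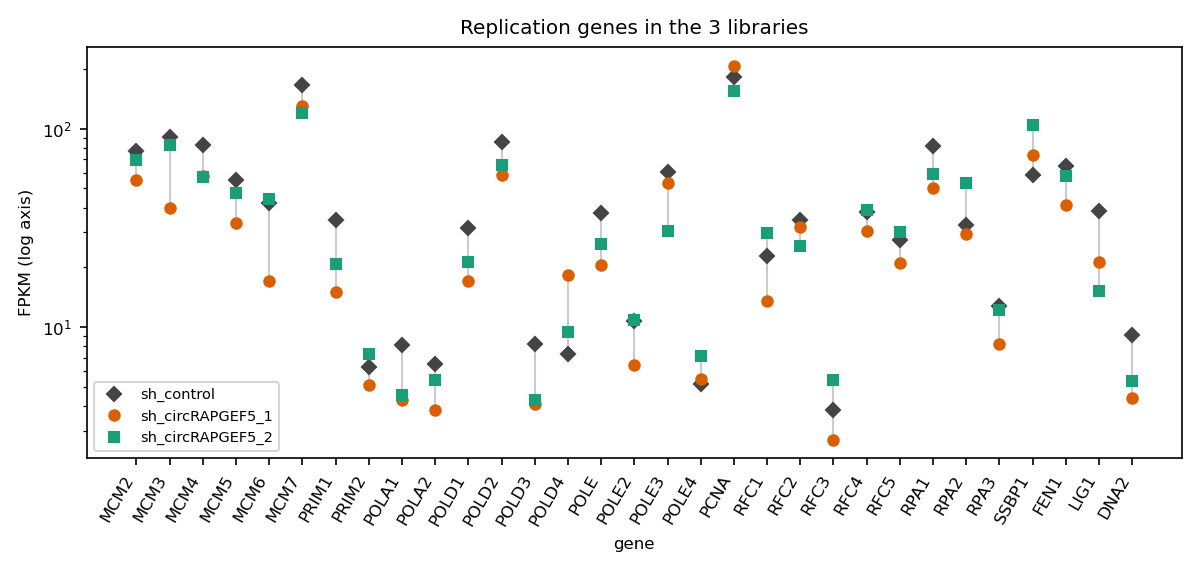
FPKM on a log axis of 31 DNA replication genes in sh_control (diamonds), knockdown library 1 (circles) and knockdown library 2 (squares); a grey line spans the 3 libraries of a gene. The diamonds of PRIM1, POLA1, POLD1, POLD3, POLE, LIG1 and DNA2, among others, stand above both other symbols. POLD4, POLE4 and SSBP1 show the reverse, and the RFC genes other than RFC2 have the diamond in the middle.

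In the Fanconi pathway the lowest group medians were those of the homologous recombination partners (-0.95) and of FANCD2 and FANCI with their ubiquitin enzymes (-0.76). FANCD2, the protein whose monoubiquitination starts crosslink repair, was at 22.2 FPKM in sh_control against 7.63 and 10.1 with knockdown, 34.4% and 45.6% of the control. Its log2 fold change was -1.24 ± 0.42 with a limma adjusted p of 0.580. Its partner FANCI was at 36.7 against 18.1 and 22.9 (-0.82 ± 0.40). UBE2T, the ubiquitin-conjugating enzyme that acts on both, was at 47.9 against 33.7 and 41.6. USP1, the protease that removes the mark, was at 21.6 against 8.96 and 16.8. WDR48, the cofactor of USP1, had the control in the middle, at 12.1 against 14.8 and 9.99.

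The core complex is the ubiquitin ligase for FANCD2 and FANCI, and with its anchoring factors it had 11 tested genes. The control was highest in 8 of them (against 37.6% of all genes) and between the knockdown libraries in 3 (against 3439 of 11216). FANCA, a scaffold subunit, was at 24.6 FPKM against 11.9 and 16.3. FANCG, which binds FANCA, was at 25.1 against 12.6 and 13.7. FANCL, the catalytic RING subunit, was at 15.7 against 7.74 and 7.98, with nearly equal knockdown libraries. FANCC was at 4.16 against 1.97 and 1.49, and FANCF at 3.30 against 1.88 and 1.70. The differences of FANCE (6.54 against 4.04 and 5.94), FANCB (1.46 against 0.937 and 1.11) and FAAP100 (13.4 against 13.1 and 11.7) were smaller. The 3 genes with the control in the middle, FANCM, FAAP24 and CENPX, encode the DNA-binding anchor of the complex.

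Homologous recombination genes named in the Fanconi pathway split into 4 with lower and 2 with higher levels (against 37.6% and 31.7% of all genes). BRCA2, which helps load the recombination filament on DNA, was at 5.78 FPKM against 1.58 and 3.32 (log2 fold change -1.02 ± 0.48, limma adjusted p 0.714). BRCA1 was at 13.3 against 6.14 and 6.47, 46.3% and 48.8% of the control (-0.97 ± 0.42, limma adjusted p 0.692). BRIP1, a helicase that binds BRCA1, was at 5.48 against 2.28 and 2.53. PALB2, which bridges BRCA1 and BRCA2, was instead at 5.49 against 6.21 and 7.31. RAD51C, which acts in the same repair, was at 19.5 against 28.2 and 21.7.

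The dissolvasome, which untangles crossed DNA strands, held the gene with the smallest p of the set. RMI2, a small subunit that stabilises it, was at 7.52 FPKM against 2.38 and 2.16, 31.6% and 28.7% of the control. Its log2 fold change was -1.38 ± 0.44, with an unadjusted limma p of 0.0082 and an adjusted p of 0.547. The helicase BLM was at 7.67 against 4.63 and 5.11 (-0.56 ± 0.43), RMI1 at 10.3 against 6.30 and 8.30 and the topoisomerase TOP3A at 10.1 against 8.11 and 5.62. TOP3B, a paralog of TOP3A, had the control in the middle (15.04 against 18.2 and 13.3).

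Nucleases and bypass polymerases of the pathway had medians near 0. Among 9 structure-specific nuclease genes 3 had the control highest and 4 had it lowest (against 37.6% and 31.7% of all genes). EME1, a partner of the MUS81 nuclease, was at 16.5 FPKM against 8.32 and 8.36, whereas MUS81 was at 9.99 against 8.06 and 10.6 and the paralog EME2 at 7.66 against 9.17 and 8.22. ERCC4 and ERCC1, which form a nuclease, both had the control lowest, at 2.38 against 3.85 and 3.77 and at 11.2 against 16.4 and 14.0. SLX1B had the lowest log2 fold change of the set, at -1.44 ± 0.56, from 9.01 FPKM against 4.99 and 1.27. It has a near-identical copy, SLX1A, at 3.11 against 3.95 and 4.26, so the division of reads between them is uncertain. Of the bypass polymerases, POLH was at 5.35 FPKM against 11.9 in library 1 and 5.65 in library 2, and POLK at 4.49 against 5.84 and 4.72. POLI (7.39 against 4.89 and 4.34) and REV1 (10.7 against 7.98 and 8.09) had the control highest.

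**Figure D4:**
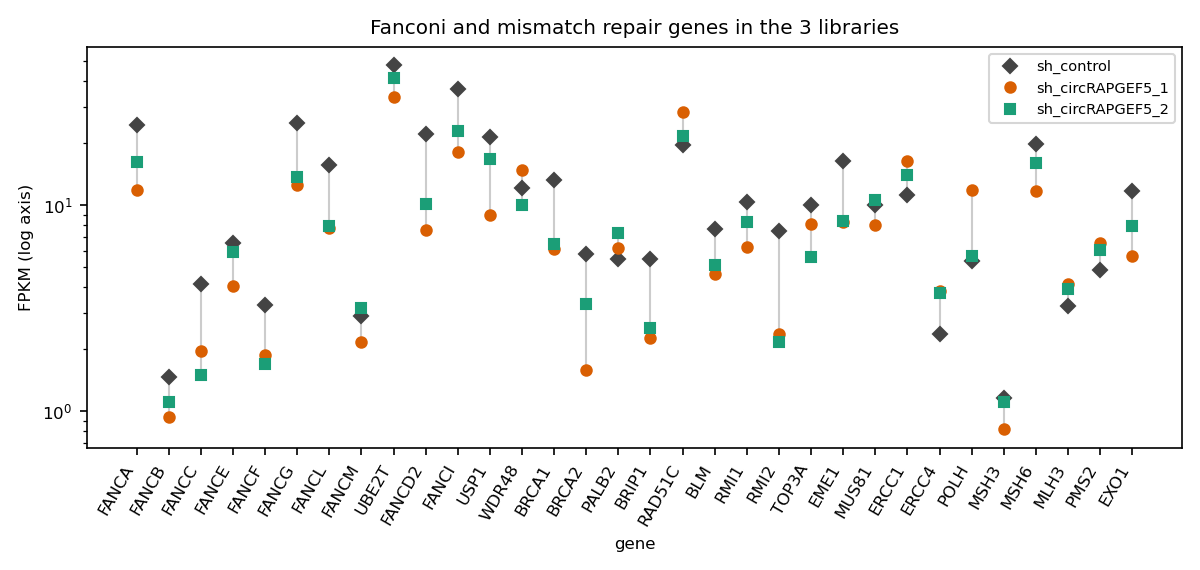
FPKM on a log axis of 32 Fanconi and mismatch repair genes in sh_control (diamonds), knockdown library 1 (circles) and knockdown library 2 (squares); a grey line spans the 3 libraries of a gene. Diamonds stand clear above both other symbols for FANCD2, FANCG, FANCL, BRCA1, BRIP1, RMI2 and EME1, among others. They lie lowest for PALB2, RAD51C, ERCC1, ERCC4, POLH, MLH3 and PMS2.

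Of the 7 genes that recognise mismatches or cut out the error, 3 had the control highest (against 37.6% of all genes). In 2 it was lowest (against 31.7%) and in 2 it was in the middle. EXO1, the exonuclease that removes the mismatched strand, was at 11.7 FPKM against 5.65 and 7.92 (log2 fold change -0.73 ± 0.44, limma adjusted p 0.802). MSH6, which reads base mismatches, was at 19.8 against 11.7 and 16.0 (-0.50 ± 0.42). MSH3, which reads small loops, was the lowest of the 7 in each library, and its log2 fold change of -0.14 turned to 0.10 with quantile normalization. PMS2, a subunit of the mismatch repair endonuclease, was at 4.83 against 6.53 and 6.04 (0.32 ± 0.43), and PMS2 has pseudogene copies that make its value uncertain. MLH3, a related subunit, was at 3.23 against 4.17 and 3.93. The remaining Mismatch repair names are replication genes described above (LIG1, PCNA, SSBP1 and the RFC, RPA and polymerase delta genes). They were 15 of its 22 tested genes.

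The knockdown libraries were also compared with each other. Library 1 had the lower level in 56 of 88 tested members (63.6%, against 51.1% of all genes tested), and in 26 of 35 DNA replication genes. The smallest whole reads behind the values were 23 to 8011 per tested member in the control, with a median of 727. From these, 95% counting intervals of the ratio between the knockdown libraries excluded equality in 64 of 88 members (72.7%, against 76% of all genes). Library 1 was lower in 42 of them (47.7% of members, against 39% of all genes) and higher in 22 (25%, against 37.1%). Against the control these intervals excluded equality in 74 members for library 1 (84.1%) and 67 for library 2 (76.1%), against 78.1% of all genes for each. The largest log2 differences between the knockdown libraries were in SLX1B, MCM6 and RFC1. These intervals cover counting error only, and the true reads may be larger than the smallest whole numbers.

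Genes of the wider pathway that are not members gave the following values. Over all genes tested the control was highest in 37.6% and lowest in 31.7%. Genes that set the supply of deoxynucleotides had the control highest in 8 of 11 and a median log2 fold change of -0.43. In this group TK1, thymidine kinase, was at 204 FPKM against 107 and 79.1. The deoxycytidine kinase DCK was at 18.0 against 5.53 and 10.1. Fork protection and checkpoint genes had the control highest in 12 of 15, with a median of -0.48. They were led by RAD9A, a subunit of the checkpoint clamp, at 18.5 FPKM against 7.11 and 7.66, and by CHTF18, of an alternative clamp loader, at 28.9 against 11.3 and 15.9. Chromatin assembly factors that follow the fork had the control highest in 6 of 7 (median -0.49), among them the histone chaperone ASF1B at 56.2 against 33.5 and 27.0.

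Origin licensing and firing genes were less uniform, with the control highest in 12 of 22 and lowest in 4 (median -0.20). Over all genes tested these shares were 37.6% and 31.7%. CDT1, which loads the MCM ring, was at 49.6 FPKM against 24.3 and 33.9, and the helicase cofactor CDC45 at 17.6 against 9.05 and 11.4. ORC5, a subunit of the origin recognition complex, was at 4.19 against 10.4 and 11.1, and the helicase subunit GINS2 at 8.80 against 15.2 and 13.8. E2F and pocket protein genes were listed together with CCNE1, CCNE2 and CDC25A. Among these 13 genes the control was highest in 7 (against 37.6% of all genes). E2F1 was at 16.4 FPKM against 9.59 and 4.58, E2F2 at 8.63 against 2.43 and 3.38 and the repressor E2F7 at 10.2 against 2.65 and 5.12. TFDP1, the common E2F partner, was at 42.0 against 67.2 and 77.6. None of these lists held a gene that passed limma's adjusted threshold. At an unadjusted p under 0.05 they held 9 of 68 tested genes with a lower level (13.2%, against 3.99% of all genes) and 1 with a higher level (1.47%, against 3.08%). The latter was ORC5, and the former included RAD9A, CHTF18, TK1, DCK, ASF1B, E2F1, E2F2 and E2F7.

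Other repair pathways were summarised with the members taken out. The median log2 fold change of homologous recombination was -0.15 (19 tested genes), that of base excision repair -0.06 (22), of nucleotide excision repair 0.13 (23) and of non-homologous end-joining -0.003 (11). In nucleotide excision repair the control was highest in 3 genes (against 37.6% of all genes) and lowest in 13 (against 31.7%). DDB1, a damage-binding ubiquitin ligase subunit, was at 79.3 FPKM there against 165 and 161, and CDK7, a kinase of the repair factor TFIIH, at 25.2 against 61.4 and 43.6. In base excision repair XRCC1, a scaffold protein, was at 25.5 against 12.2 and 10.7. BARD1, the partner of BRCA1, was at 5.10 against 1.45 and 2.34 in homologous recombination. Whether these lists differ from the members was not tested.

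**Figure D5:**
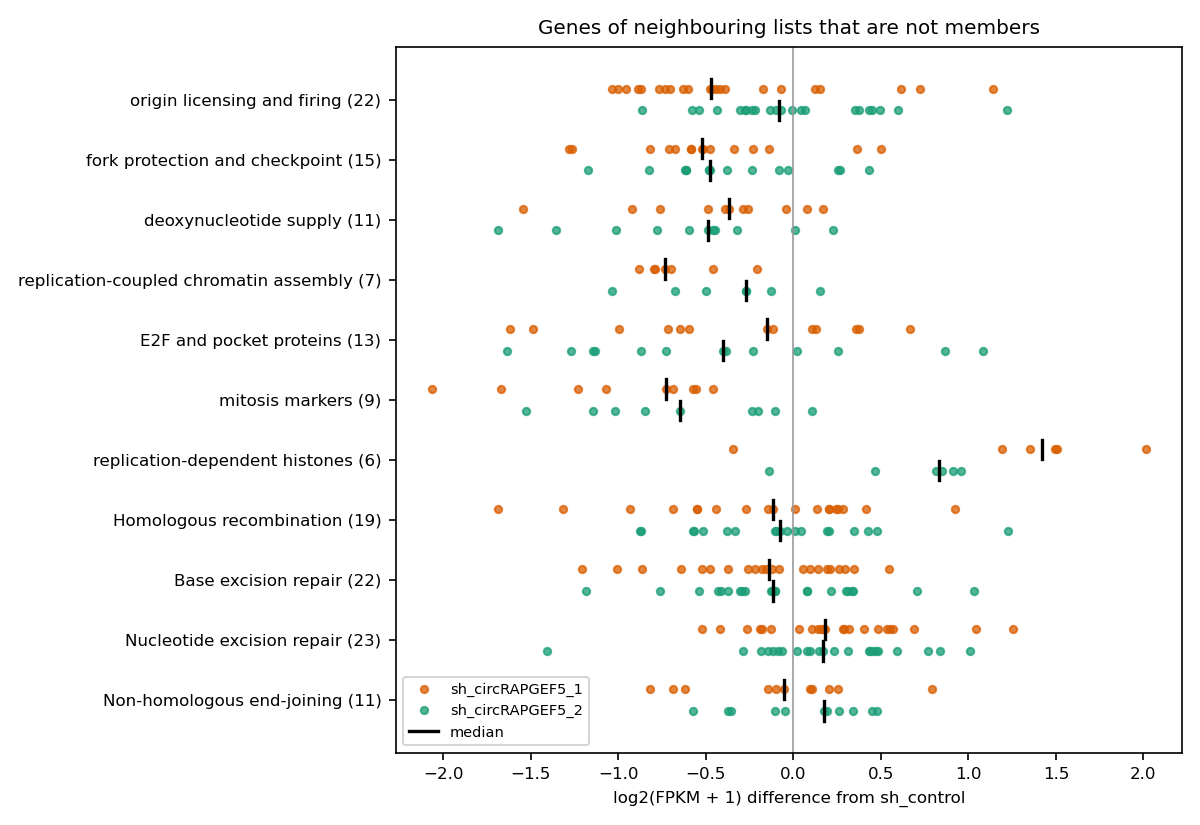
Difference of log2(FPKM + 1) from sh_control for genes outside the set (points) in knockdown library 1 and knockdown library 2, by list, with the number of tested genes in parentheses and a black tick at each median. Medians of the mitosis markers are at -0.72 and -0.65 and those of replication-dependent histones at 1.42 and 0.83, while the medians of the other repair pathways lie between -0.14 and 0.18.

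Markers of cell division and of RNA quality were looked at beside the members, and limma's adjusted threshold was passed by 0 of them. At an unadjusted p under 0.05 limma gave 4 of 9 mitosis markers with a lower level (against 3.99% of all genes). It gave 4 of 6 tested histone genes with a higher one (against 3.08%). Of 9 mitosis markers 8 had the control highest (against 37.6% of all genes), with a median log2 fold change of -0.67. The summed level of the 9 was 559.9 FPKM against 277.6 and 370.9. MKI67, a marker of cycling cells, was at 93.5 FPKM against 21.6 and 45.6. The broader Cell cycle pathway without the members (108 tested genes) had a median of -0.13. The control was highest in 48 of the 108 (against 37.6% of all genes) and lowest in 31 (against 31.7%). Of the pathway's 108 tested genes 10 were at least 1.5-fold lower in both libraries (against 7.4% of all genes). Another 10 were at least 1.5-fold higher in both (against 5.52%). At an unadjusted limma p under 0.05, 4 of the 108 had a lower level (against 3.99% of all genes) and 7 a higher one (against 3.08%). The summed level of this pathway was 3948 FPKM against 4564 and 4113. Replication-dependent histones, listed as a possible sign of RNA quality because their main transcripts lack poly(A) tails, had 6 of 12 genes tested and a median of 1.09. Their summed level was 68.7 FPKM against 128 and 127. The part of these markers in the members' values was not tested. The labelled epithelial line was checked by 7 markers, of which 5 were tested. The control was highest in 1 of the 5, lowest in 2 and in the middle in 2. Their log2 fold changes ran from -0.49 to 0.67. EPCAM was at 176 FPKM against 170 and 191 and KRT8 at 1031 against 1084 and 1694. VIL1 and LGALS4 were at most 0.377. Markers of fibroblasts (2 of 5 in the table) summed to 14.0 FPKM against 4.64 and 8.44, nearly all of it COL1A1. Those of leukocytes (4 of 5) summed to 2.06 against 3.67 and 8.05, mainly CD68, and PTPRC, which defines them, was listed at 0 in the control and library 1. Those of endothelial cells (2 of 4) summed to at most 0.216.

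Members with E2F letters in a promoter window had a median log2 fold change of -0.45 (26 tested genes), and members with windows but no match -0.27 (51 genes). The control lay above both knockdown libraries in 65.4% and 50.98% of them. Outside the members these medians were -0.11 (603 genes with a match) and -0.03 (8436 without). Levels at least 1.5-fold lower in both knockdown libraries were found in 5 of the 26 members with a match and 7 of the 51 without. Outside the members they were found in 47 of 603 and 579 of 8436 genes. Members with these letters were found on both sides of the control: FANCD2 and LIG1 hold them, as do PCNA, with the control in the middle, and SSBP1, with the control lowest. These are descriptions of genes in the same 3 libraries, with no test.

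Some members share their promoter region with a neighbour that points the other way. By RefSeq, 20 members had a tested head-to-head neighbour whose start lay at most 1000 bases away. The control was above both knockdown libraries in 12 of these members. Of their 12 neighbours 4 also had it above both (against 37.6% of all genes) and 6 had it below both (against 31.7%). The 6 include the neighbour of SLX1B, a member whose division of reads with SLX1A is uncertain. The 6 also include the neighbour of BRCA1, which lies near only 1 of 2 BRCA1 starts. FPKM values are per gene and do not divide a gene by start, and 6 of the 20 members have more than 1 start in RefSeq. The pair with the closest starts, 40 bases apart where nearest, was MCM7 and AP4M1, an adaptor complex gene. MCM7 had a log2 fold change of -0.41, and AP4M1 was at 8.62 FPKM against 4.58 and 6.76 (-0.55), so both had the control highest. EME1 and MRPL27, a mitochondrial ribosomal protein gene, had 45 bases between their starts. EME1 was at -0.90, whereas MRPL27 was at 56.9 FPKM against 87.4 and 105 (0.74). NBR1, an autophagy receptor gene, lies 82 bases from the farther upstream of 2 BRCA1 starts, and was at 19.1 FPKM against 32.7 and 22.4 (0.48). The windows of these BRCA1 starts are chr17:43125315-43125614 and, near NBR1, chr17:43170278-43170577 (minus strand). The BRCA1 level cannot be assigned to the start near NBR1. RPA1 and SMYD4 had starts 103 bases apart, with RPA1 at -0.58 and SMYD4 at 5.56 FPKM against 4.89 and 5.89 (-0.04). Of these 4 neighbours, AP4M1 was the one whose level was lower than the control in both libraries.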

How the data were processed

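RNA of 1 control and 2 knockdown samples was sequenced after preparation with a stranded mRNA kit (TruSeq), per the labels' protocols. The authors deposited FPKM values for 15625 genes with a text column of pathway names per gene. The build GRCh38.p13 and the tools Trimmomatic and HISAT2 are named, per the submitters' processing notes. Their versions, the counting program and its strand setting are not stated there.

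Genes with a mean of at least 1 FPKM were tested on log2(FPKM + 1), which understates changes of low genes, with limma 3.58.1 (R 4.3.3, mean-variance trend, knockdown against control, Benjamini-Hochberg over all 11216 genes, threshold 0.05). The fit had 1 residual degree of freedom and 10.92 prior ones, and takes the single control to vary as the knockdown libraries do. Once 1 depth factor per library was removed, values of 100% of genes were ratios of whole numbers (relative tolerance 1e-11), and the smallest such reads summed to 14632390 for sh_control, 14832142 for library 1 and 15758794 for library 2. Both steps were tested on simulated data. The limma simulation gave all 3 libraries the same spread, so it could not check how the single control varies. Counting intervals are normal approximations of the log ratio of Poisson counts at 95%.

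The members, gene lists and tests were chosen with earlier results of these data known. Named by rule were 34 core genes, the 5 members farthest from 0 per pathway, the 3 that differ most between knockdown libraries, those next to the filter and up to 4 genes per other list; the remaining names were chosen for their role after their values were seen. Some of the genes this rule names are not reported here, and counts and medians include them. Promoter windows and neighbours come from RefSeq (GRCh38.p14). The settings varied were the pseudocount (0.1 and 5), the filter (none, or a mean of 5 FPKM), quantile normalization, median-ratio rescaling, robust limma, limma with no trend or with a prior of 5, and leaving out each knockdown library.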

Additional observations from a re-analysis of the deposited data

How the results depend on the processing

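The members' median log2 fold change stayed below 0 under every alternative run, from -0.20 to -0.46 when a knockdown library was left out, and 0 members passed limma's adjusted threshold under any of the 9 alternatives with a test. The Fanconi pathway median moved from -0.34 to -0.22 with a pseudocount of 5 and to -0.23 with quantile normalization, and was -0.22 without knockdown library 1 and -0.35 without library 2. Members at an unadjusted p under 0.05 went from 9 to 3 with no filter, to 4 with median-ratio rescaling and to 4 with a prior of 5. Members at least 1.5-fold lower in both libraries went from 17 to 9 with a pseudocount of 5, and to 22 and 36 with 1 knockdown library left out. The count at least 1.5-fold higher went from 0 to 1 (ERCC4) with a pseudocount of 0.1 and with quantile normalization, and to 2 with either library left out (RPA2 and SSBP1, or POLD4 and POLH). Members with the control lowest went from 14 to 21 and 30 with a library left out, where only 1 library has to lie above the control. Over all genes the 2 calls became 1 with a pseudocount of 5, median-ratio rescaling, no trend or robust fitting, and 0 with no filter, quantile normalization or a prior of 5. Of 235 values of the 40 named tested members under alternatives that keep all libraries, 3 changed sign: MSH3 (0.10, quantile normalization), PCNA (0.068, median-ratio rescaling) and RFC3 (-0.0027, pseudocount of 0.1). Where the construction of an alternative does not show it, the cause was not tested. Leaving out SLX1A, SLX1B and CENPS-CORT, added after seeing the data, gave a median of -0.35 and 50 members with the control highest. No paired analysis was possible because the control has 1 library and shares fewer than 2 replicate numbers with the knockdown. Without the control there is no comparison. The lone control and 1 residual degree of freedom limit the precision of every value.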
